A study of Mus musculus with 24 samples.

Results

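Hepcidin and the genes that sense, store and move iron were examined in liver RNA-Seq of lipodystrophic Lmna-ADKO mice and their controls. The 10 genes were chosen by name for their role in iron handling and taken as rows of the count table, where all 10 of 10 were found among 23972 genes. They are the hepcidin genes Hamp and Hamp2, the hepcidin inputs Bmp6 and Tfr2, the SMAD response gene Id1, the transferrin receptor gene Tfrc, the ferritin genes Fth1 and Ftl1, the iron exporter gene Slc40a1 and the importer gene Slc39a14. Livers came from female mice housed at 22°C on a 60% high-fat diet, begun 4 weeks before transduction and continued for 8 weeks after it. Animals entered the experiments at an age of 12 to 14 weeks. Every mouse carried Lmna fl/fl alleles, with loxP sites around exons 10 and 11, on a C57BL/6J background. Controls (Adipoq-Cre negative) were given vehicle (n = 7) or FGF21 (n = 3), and Lmna-ADKO mice (Adipoq-Cre positive) were given vehicle (n = 6) or FGF21 (n = 8). Adipoq-Cre is driven by an adipocyte promoter, so Lmna RNA in liver does not check the deletion, and it measured 26.7 ± 2.57 CPM (SD) in vehicle-treated Lmna-ADKO livers and 18.6 ± 2.47 in vehicle-treated controls. FGF21 was delivered as an adeno-associated virus, while vehicle was buffer with no empty virus, so that viral transduction and FGF21 cannot be told apart. The labels call the treatment a rescue, which was read as FGF21 from the methods. The paper reports that plasma FGF21 rose after transduction in this experiment, more so in Lmna-ADKO mice than in controls. Hepatic Fgf21 RNA did not set the treated groups apart. It measured 1.9 to 10.8 CPM in vehicle-treated controls and 3.14 to 7.4 in FGF21-treated controls. In Lmna-ADKO mice it measured 4.63 to 10.6 CPM with vehicle and 2.19 to 9.99 with FGF21. Whether these counts include transcripts of the virus was not tested, so they do not check the delivery.

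Hepcidin is a peptide hormone made mainly by hepatocytes that binds the iron exporter ferroportin and causes its breakdown, which lowers the release of iron into plasma. Its transcription rises when BMP6, largely from liver sinusoidal endothelial cells, activates receptors and SMAD proteins in hepatocytes, and it also rises in inflammation through STAT3. Inside cells, iron regulatory proteins bind hairpins called iron-responsive elements. Such a hairpin at the 5′ end of ferritin or ferroportin mRNA holds back translation when iron is low, whereas hairpins at the 3′ end of Tfrc mRNA stabilize it.

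Mice have a pair of neighbouring hepcidin genes on chromosome 7, and their upstream sequences are shown because BMP and STAT motifs were searched for there. Sequence further upstream than the promoter windows was not searched. The 150 bases before each start site are given below from RefSeq on GRCm38.p6, both on the minus strand, for Hamp at chr7:30944030-30944179 and for Hamp2 at chr7:30924182-30924331. The Hamp2 window lies within the span that GENCODE gives this gene, since GENCODE places its start further upstream than RefSeq does. Capitals mark the core of the BMP response element, GGCGCC, or the 6 bases aligned to it, and the STAT motif TTCTTGGAA, both searched on both strands.
Hamp: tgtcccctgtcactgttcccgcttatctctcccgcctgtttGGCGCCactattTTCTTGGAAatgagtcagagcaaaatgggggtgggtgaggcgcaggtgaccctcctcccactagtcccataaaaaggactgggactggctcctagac
Hamp2: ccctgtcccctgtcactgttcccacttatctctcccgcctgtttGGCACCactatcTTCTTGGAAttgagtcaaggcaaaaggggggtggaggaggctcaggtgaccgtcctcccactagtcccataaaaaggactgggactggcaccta
When aligned, the windows held 135 identical bases over 147 aligned positions. The BMP core of Hamp, 109 to 104 bases before the start, differed from the aligned bases of Hamp2 by G4A, counted from the first base of the core with Hamp named first. GGCGCC occurred in 11.9% of 32851 promoter windows of 300 bases, among them Hamp and 1 of the 2 windows of Tfrc, and TTCTTGGAA in 0.417%, among them Hamp and Hamp2. Windows were found for 7 of the 10 genes, not for Id1, Slc40a1 or Slc39a14, and a match of letters does not show that a factor binds.

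Of the 10 genes, 4 have a hairpin of the iron-responsive kind in GENCODE M21 transcripts, and these are shown because Tfrc is the gene among the 10 that rose most in Lmna-ADKO liver. The search asked for a C, 5 bases, the loop CAGTG followed by A, C or T, and 5 bases that pair with the first 5, within a UTR. The loop is in capitals.
Fth1, 5′ UTR, chr19:9982733-9982760, plus strand: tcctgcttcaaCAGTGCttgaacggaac
Ftl1, 5′ UTR, chr7:45459779-45459806, minus strand: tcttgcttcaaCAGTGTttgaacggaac
Slc40a1, 5′ UTR, chr1:45925465-45925492, minus strand: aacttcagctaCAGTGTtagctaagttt
Tfrc, 3′ UTR, chr16:32631220-32631247, plus strand: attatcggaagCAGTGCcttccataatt
Tfrc, 3′ UTR, chr16:32631599-32631626, plus strand: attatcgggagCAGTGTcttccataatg
Tfrc, 3′ UTR, chr16:32631664-32631691, plus strand: tatatcggagaCAGTGAtctccatatgt
Tfrc, 3′ UTR, chr16:32631711-32631738, plus strand: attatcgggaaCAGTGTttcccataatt
Coordinates are on GRCm38. A match was found in 0.562% of 21901 genes with coding transcripts, and the pattern can also match hairpins that are not functional.

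On GRCm38 the hepcidin genes lie at chr7:30942368-30944032 (Hamp, ENSMUSG00000050440) and chr7:30922372-30924681 (Hamp2, ENSMUSG00000056978), both on the minus strand. Tfrc (ENSMUSG00000022797) lies at chr16:32608920-32632794, Tfr2 (ENSMUSG00000029716) at chr5:137569840-137587481, Bmp6 (ENSMUSG00000039004) at chr13:38345107-38500302, Id1 (ENSMUSG00000042745) at chr2:152736251-152737410 and Fth1 (ENSMUSG00000024661) at chr19:9980598-9985098, on the plus strand. Ftl1 (ENSMUSG00000050708) at chr7:45457944-45459884, Slc40a1 (ENSMUSG00000025993) at chr1:45908068-45926523 and Slc39a14 (ENSMUSG00000022094) at chr14:70303469-70351425 are on the minus strand. Counts cover the exons of each gene.

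Each library held 19863304 to 21510054 counts, and levels are given as CPM, counts scaled to a common library size after TMM normalization. The 8 hepatocyte markers listed were all detected and together made 92862 to 180005 CPM. Libraries Lmna-ADKO FGF21 7, control FGF21 3 and control vehicle 3 stood apart by a dependence of counts on gene length. Animal numbers had 3 digits in 6 of 7 vehicle-treated controls and 1 of 6 vehicle-treated Lmna-ADKO mice, so that this series could be examined in the vehicle comparison only as a covariate, and the 3 FGF21-treated controls all had 4 digits. The labels do not say whether the animals shared cages or days, and p-values measure the spread between these animals. In whole liver, fewer cells of a type and less RNA per cell cannot be told apart.

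Per kilobase of exon, Ftl1 (ferritin light chain) was the most abundant transcript, with a mean of 2978 CPM per kb over all 24 libraries. It was followed by Hamp with 1307, Fth1 (ferritin heavy chain) with 544 and Hamp2 with 532. Per kb, Hamp exceeded Fth1 in 17 of 24 libraries and Fth1 exceeded Hamp2 in 16, and this order differed between groups. In vehicle-treated controls the means were 2122 CPM per kb for Hamp, 842 for Hamp2 and 478 for Fth1. In vehicle-treated Lmna-ADKO livers Fth1 was the highest of the 3 with 580.2, followed by Hamp with 480.2 and Hamp2 with 209.8. With FGF21 Hamp was the highest of the 3 in both genotypes. FGF21-treated controls had 2563 for Hamp, 1020 for Hamp2 and 583 for Fth1. FGF21-treated Lmna-ADKO livers had 744 for Hamp, 561 for Fth1 and 321 for Hamp2. Lengths are unions of all annotated exons, 3469 bases for Fth1 and 410 for Hamp, so this order depends on the annotation. Without division by length, Fth1 had the highest mean CPM of the 3 in both vehicle groups. It had 1656.5 CPM against 870 for Hamp in controls, and 2013 against 197 in Lmna-ADKO livers. The hepatocyte iron sensor Tfr2 had 81 CPM per kb, and Slc40a1 (ferroportin) and Slc39a14 (the carrier ZIP14, which takes up iron not bound to transferrin) were close at 17.2 and 17, with Slc40a1 higher in 14 of 24. Id1 had 9.58, Tfrc 3.26 and Bmp6, the ligand, 1.3 CPM per kb.

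Hepcidin RNA was low in most Lmna-ADKO livers and nearly absent in a pair of them. Hamp measured 1172, 1000.5, 963, 1179, 438, 348 and 991 CPM in the vehicle-treated controls. In vehicle-treated Lmna-ADKO livers it measured 282, 2.84, 130.2, 156, 122 and 488 CPM. All 6 Lmna-ADKO values lay below the control median and 5 of 6 below every control, and the group overlapped through 1 library. The log2 fold change was -2.14 ± 0.95 (SE), with an adjusted p of 0.148 (edgeR quasi-likelihood test, Benjamini-Hochberg over all genes), so this difference did not pass. Library Lmna-ADKO vehicle 2 held 63 Hamp counts. Without it and Lmna-ADKO FGF21 4, left out after their Hamp values were seen, the log2 fold change was -1.88 and passed (edgeR adjusted p = 0.0435), and over all alternatives fitted across genes the adjusted p ran from 0.0435 to 0.235. Leaving out the lowest Hamp values narrows the spread of the gene tested, so this pass cannot serve as support. No other alternative fitted across genes passed for Hamp. An exact two-sided permutation test of log2 CPM, chosen after the values were seen, gave a difference of -2.99 and an unadjusted p of 0.00175. DESeq2 gave an adjusted p of 0.0506.

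With FGF21 the same direction was seen in Hamp, with more overlap. FGF21-treated controls had 683, 308 and 2162 CPM. FGF21-treated Lmna-ADKO livers had 104, 534, 274, 0.145, 224, 333, 114 and 858 CPM. Thus 7 of 8 lay below the control median and 5 of 8 below every control, and the difference was -1.78 ± 1.02 on the log2 scale (edgeR adjusted p = 0.399). It was -0.70 without control FGF21 3, the library with the most Hamp. Library Lmna-ADKO FGF21 4 held 3 Hamp counts, which a 95% exact Poisson interval places between 0.0299 and 0.424 CPM, and this interval covers counting error only.

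Hamp2, the neighbouring paralog with a product of uncertain role in iron balance, moved in the same direction. Its range in vehicle-treated controls was 149.6 to 995 CPM with a median of 397, against 16.4 to 239 with a median of 119.9 in vehicle-treated Lmna-ADKO livers. Hamp2 was 4.01-fold lower, with an SE of 0.78 on the log2 scale (edgeR adjusted p = 0.0926). It passed with DESeq2 (-2.01, adjusted p = 0.0235), without Lmna-ADKO FGF21 4 (edgeR adjusted p = 0.0201), and without both libraries with little Hamp (-1.77, edgeR adjusted p = 0.0288), and over all alternatives the adjusted p ran from 0.0201 to 0.218. Both libraries with little Hamp also had the lowest Hamp2 of their groups, so leaving them out narrows the spread of Hamp2 too. With FGF21, controls had 404, 604 and 775 CPM and Lmna-ADKO livers 0.58 to 419 with a median of 186, 7 of 8 below every control, and the log2 fold change was -1.67 ± 0.84 (edgeR adjusted p = 0.326). The transcripts of the pair were not aligned here and the counting program distributes any shared reads, so the division between the genes is uncertain. Summing both before the fit gave a log2 fold change of -2.09 in the vehicle comparison (edgeR adjusted p = 0.0887).

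The share of Hamp2 in the summed counts varied widely between animals of a group, from 11.3% to 67.9% in vehicle-treated controls, 26.4% to 66.2% in FGF21-treated controls, 13.6% to 85.2% in vehicle-treated and 23.3% to 80% in FGF21-treated Lmna-ADKO livers. The highest share in each Lmna-ADKO group was in the library with the least Hamp. Means were 48.7% ± 24.7 (SD) in vehicle-treated Lmna-ADKO livers and 36.0% ± 23.6 in vehicle-treated controls. None of the 4 group comparisons passed an exact two-sided permutation test, with unadjusted p from 0.357 to 0.836 and adjusted p of 0.713 to 0.836 over 8 tests.

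**Figure D1:**
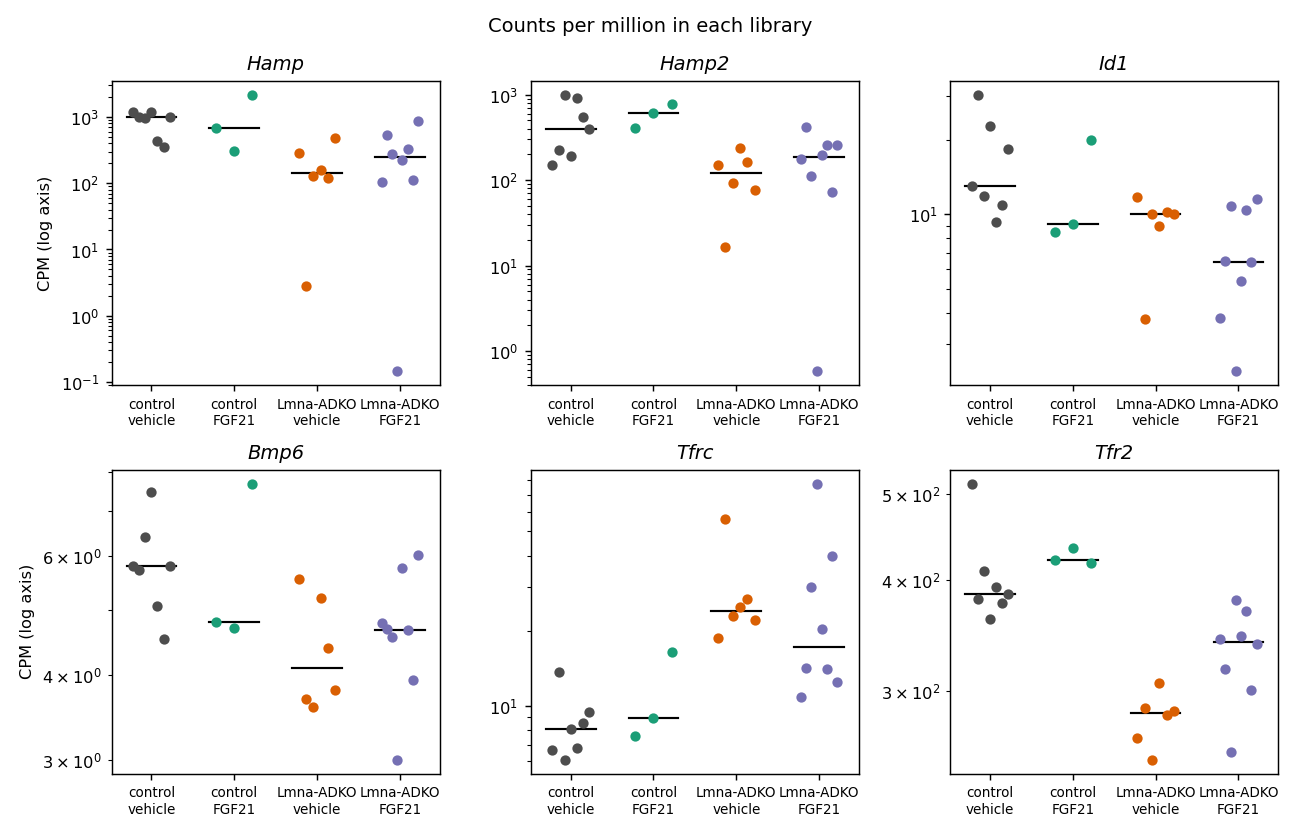
CPM of Hamp, Hamp2, Id1, Bmp6, Tfrc and Tfr2 on log axes, with 1 point per library and a bar at the median of each of the 4 groups. Hamp lies at 2.84 and 0.145 CPM in a pair of Lmna-ADKO libraries, and the same libraries have the highest Tfrc, at 56.3 and 77.8 CPM.

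The ligand and SMAD response gene lay below the control median in every vehicle-treated Lmna-ADKO liver without passing the test. Bmp6 ranged from 4.52 to 7.46 CPM (median 5.8) in vehicle-treated controls and from 3.59 to 5.56 (median 4.1) in vehicle-treated Lmna-ADKO livers, which differed by -0.41 ± 0.16 on the log2 scale (edgeR adjusted p = 0.0796). Id1, a transcriptional regulator induced by BMP signals, ranged from 9.34 to 30.5 CPM (median 13.1) in the controls and from 3.79 to 11.8 (median 10) in the Lmna-ADKO livers, which differed by -0.87 ± 0.36 on the log2 scale (edgeR adjusted p = 0.116). With DESeq2 the adjusted p was 0.047 for Bmp6, whose fold change stayed under 1.5, and 0.0405 for Id1. Over all alternatives it ran from 0.0409 to 0.173 for Bmp6 and from 0.0405 to 0.247 for Id1. With FGF21, Bmp6 had a log2 fold change of -0.29 ± 0.19 (edgeR adjusted p = 0.464) and Id1 of -0.81 ± 0.42 (edgeR adjusted p = 0.35), and without the 3 libraries that stood apart by gene length the Bmp6 value was 0.02.

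Other genes that respond to BMP and SMAD proteins were counted from a list of 9, all measured, which holds no member. In the vehicle comparison, 2 passed as lower and 0 as higher by edgeR, against 3.36% lower and 5.12% higher over all genes, and the median log2 fold change was -0.25 against 0.0027 over all genes. Id2 fell by 0.82 ± 0.24 (SE) on the log2 scale (edgeR adjusted p = 0.0208), from a median of 114 CPM to 54.3, and Id3 fell by 0.75 ± 0.24 (edgeR adjusted p = 0.0344), from 62.2 to 30.6. Both encode regulators of the same family as Id1, and the groups overlapped. Smad6, an inhibitory SMAD, was lower in all 6 Lmna-ADKO livers than in every control, at 5.97 to 8.25 against 8.56 to 13.4 CPM, a log2 fold change of -0.54 ± 0.13 (edgeR adjusted p = 0.0038) that did not reach a fold of 1.5. Skil, which restrains SMAD activity, passed the adjusted p alone in the other direction (0.58 ± 0.16, edgeR adjusted p = 0.0125). The most abundant genes that were not called, Ski and Atoh8, had log2 fold changes of -0.20 (edgeR adjusted p = 0.29) and -0.47 (edgeR adjusted p = 0.455). With FGF21, 0 of 9 passed by edgeR or DESeq2 and 1 had an unadjusted p under 0.05, with Id2 at 0.04 ± 0.29 and Smad6 at -0.02 ± 0.15, and the 3 FGF21-treated controls had 48.6, 54.8 and 62 CPM of Id2, within the range of vehicle-treated Lmna-ADKO livers (42 to 104).

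**Figure D2:**
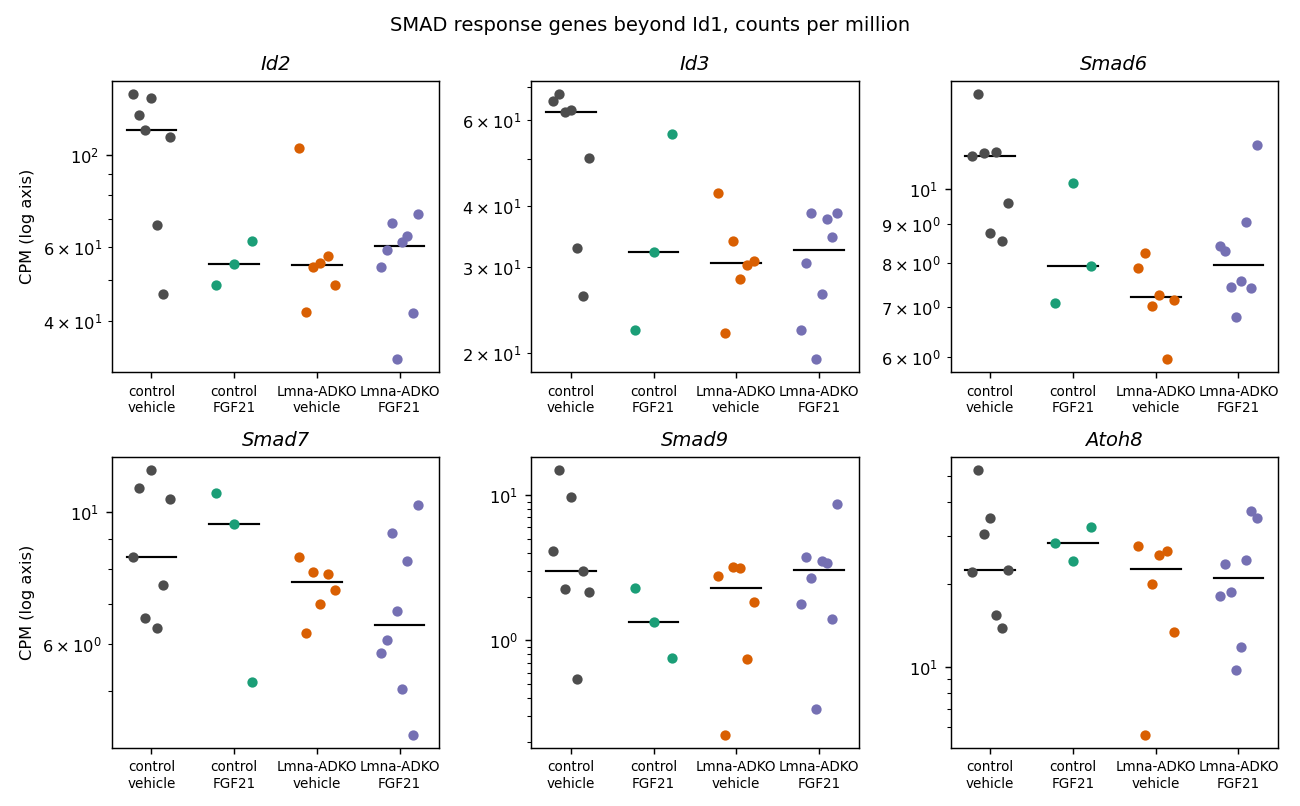
CPM of 5 SMAD response genes and of Smad9, a receptor-regulated SMAD, on log axes, with 1 point per library and a bar at each group median. Smad6 in vehicle-treated Lmna-ADKO livers (5.97 to 8.25 CPM) lies under all vehicle-treated controls (8.56 to 13.4 CPM), while the FGF21-treated groups overlap.

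Tfrc, which encodes the receptor that takes up transferrin-bound iron, rose in vehicle-treated Lmna-ADKO livers. It measured 6.67, 13.6, 6.08, 8.1, 6.78, 8.51 and 9.5 CPM in vehicle-treated controls and 18.7, 56.3, 22.9, 24.9, 26.8 and 22 CPM in vehicle-treated Lmna-ADKO livers. The groups did not overlap. The fold change was 3.37, or 1.75 ± 0.42 (SE) on the log2 scale (edgeR adjusted p = 0.00643), and Tfrc was the 1 gene of the 10 that passed in this comparison, against 8.48% of all genes (5.12% higher, 3.36% lower). Without the 2 libraries with the least Hamp the log2 fold change was 1.44 (edgeR adjusted p = 0.00204), and with the number series as a covariate it was 1.87 (edgeR adjusted p = 0.0275), the largest adjusted p among the alternatives. The Tfrc hairpins shown above lie in the 3′ UTR of this gene, and their part in its level was not tested.

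With FGF21 the rise of Tfrc did not pass. Controls had 7.6, 8.99 and 16.5 CPM, and Lmna-ADKO livers had 10.9, 14.2, 29.8, 77.8, 20.3, 14.1, 39.8 and 12.5 CPM. All 8 lay above the control median and 4 of 8 above every control, with a log2 fold change of 1.32 ± 0.54 (edgeR adjusted p = 0.208). DESeq2 called it (1.29, adjusted p = 0.0437), and over all alternatives the adjusted p ran from 0.0437 to 0.518. The interaction of genotype and treatment for Tfrc was -0.44 ± 0.66 on the log2 scale (edgeR adjusted p = 1).

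Tfr2, the second transferrin receptor and a hepatocyte sensor that promotes hepcidin transcription, was lower in Lmna-ADKO livers under both treatments. Vehicle-treated controls had 361 to 513 CPM (median 386) and vehicle-treated Lmna-ADKO livers 251 to 306 (median 283), with no overlap. The log2 fold change was -0.53 ± 0.10 (edgeR adjusted p = 0.000581), short of a fold of 1.5, and 15.1% of all genes passed the adjusted p alone. FGF21-treated controls had 421, 435 and 418 CPM and FGF21-treated Lmna-ADKO livers 256 to 380.2 (median 341). These groups did not overlap either, and the log2 fold change was -0.36 ± 0.12 (edgeR adjusted p = 0.0968). Within Lmna-ADKO mice, 6 of 8 FGF21-treated livers lay above every vehicle-treated liver, but the difference of 0.25 ± 0.10 did not pass (edgeR adjusted p = 0.704).

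The ferritin transcripts were abundant and the groups overlapped. Fth1 ranged from 1251 to 2244 CPM (median 1640.3) in vehicle-treated controls and from 1774 to 2224 (median 2044) in vehicle-treated Lmna-ADKO livers, a difference of 0.28 ± 0.19 on the log2 scale (edgeR adjusted p = 0.37). All 6 Lmna-ADKO values lay above the control median. Without the 3 libraries that stood apart by gene length, the Fth1 value was 0.38 (edgeR adjusted p = 0.0127), and with the number series as a covariate it was 0.12 (edgeR adjusted p = 0.828). Ftl1 ranged from 3015 to 4932 CPM in the controls and from 2142 to 4935 in the Lmna-ADKO livers, a difference of -0.11 ± 0.23 on the log2 scale (edgeR adjusted p = 0.817). With FGF21 the log2 fold changes were -0.06 ± 0.23 for Fth1 (edgeR adjusted p = 0.941) and -0.13 ± 0.27 for Ftl1 (edgeR adjusted p = 0.853). Ftl1 has near-identical copies elsewhere in the genome, so its counts depend on how shared reads were assigned.

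The ratio of Ftl1 to Fth1 counts, which does not depend on library scaling, was 1.97 to 2.82 in vehicle-treated controls. In vehicle-treated Lmna-ADKO livers it was 1.22, 2.15, 1.11, 2.07, 1.95 and 2.22. Libraries 1 and 3 were low and the other 4 lay near the lower controls. The mean log2 ratio was 0.45 lower in the Lmna-ADKO livers, with an exact two-sided permutation p of 0.0181 that became 0.145 after adjustment over 8 tests. The ratio was 2.19 to 2.28 in FGF21-treated controls and 1.95 to 2.31 in FGF21-treated Lmna-ADKO livers (exact permutation p = 0.309).

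**Figure D3:**
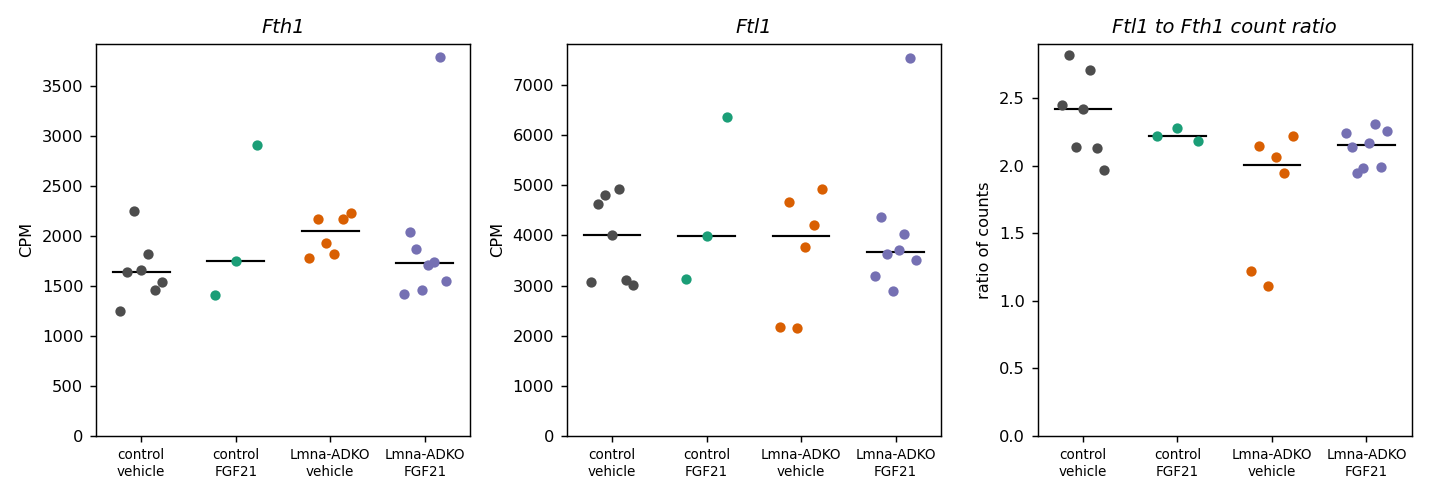
CPM of Fth1 and of Ftl1 and the ratio of their counts, on linear axes from 0, with 1 point per library and a bar at each group median. The ratio is 1.22 and 1.11 in a pair of vehicle-treated Lmna-ADKO libraries and 1.95 to 2.82 in all others.

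The transporters did not pass the test. Slc40a1 ranged from 137 to 197 CPM (median 178) in vehicle-treated controls and from 132 to 173 (median 144) in vehicle-treated Lmna-ADKO livers, a difference of -0.23 ± 0.12 on the log2 scale (edgeR adjusted p = 0.22). The adjusted p ran from 0.038 (without the 3 libraries that stood apart by gene length) to 0.541 (with the number series as a covariate), with a fold under 1.5 throughout. In the FGF21 comparison the value was 0.01 ± 0.14 (edgeR adjusted p = 1), with an FGF21-treated control range of 126 to 184 CPM. Slc40a1 is expressed in macrophages as well as hepatocytes. The 8 Kupffer cell markers summed to 603 to 858 CPM in vehicle-treated controls and 386 to 710.4 in vehicle-treated Lmna-ADKO livers with 0 of 8 called by edgeR or DESeq2 and 3 at an unadjusted p under 0.05. Beside this, 6 of 8 recruited macrophage markers rose (summed 122 to 243 against 231 to 406 CPM, edgeR), and the part of these cells in the Slc40a1 level was not tested. Slc39a14 ranged from 137 to 285 CPM in the controls and from 109 to 175 in the Lmna-ADKO livers under vehicle (-0.26 ± 0.17, edgeR adjusted p = 0.335), and under FGF21 its log2 fold change was -0.39 ± 0.20 (edgeR adjusted p = 0.323).

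**Figure D4:**
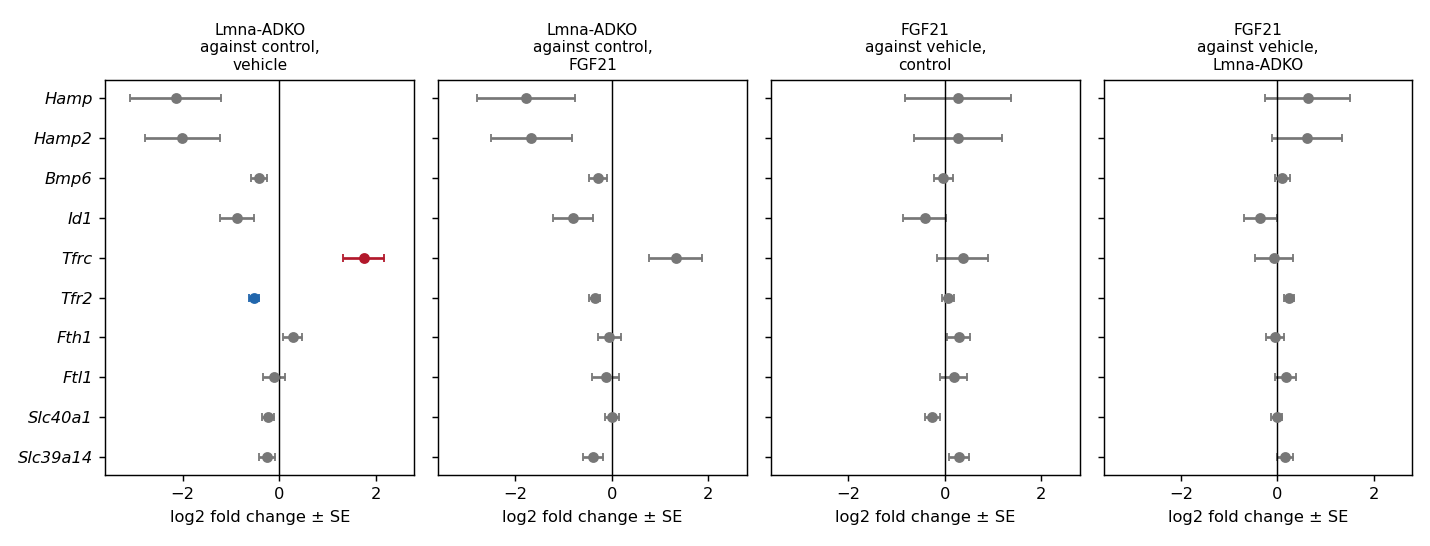
Log2 fold changes (points) and SE (bars) of the 10 genes in 4 comparisons, red where the adjusted p and a fold above 1.5 were both met, blue where the adjusted p alone was met and grey otherwise. Tfrc (1.75) is red and Tfr2 (-0.53) blue in the vehicle comparison, and none is coloured in the other 3.

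FGF21 changed none of the 10 genes by edgeR in either genotype. In controls the 10 log2 fold changes ran from -0.41 (Id1) to 0.37 (Tfrc), the lowest adjusted p was 0.771, and 0.0542% of all genes were called. In Lmna-ADKO mice they ran from -0.35 (Id1) to 0.63 (Hamp), the lowest adjusted p was 0.704 (Tfr2), and 0% of all genes were called. At an unadjusted p under 0.05, 0 of the 10 passed in controls and 1, Tfr2, in Lmna-ADKO mice, of 1476 and 1608 genes. DESeq2 called 0 of the 10 in both, with 38 and 15 genes called in all. For Hamp in controls the log2 fold change was 0.27 ± 1.10, and it turned to -0.82 without control FGF21 3. The interaction was called for 0.00417% of genes by edgeR and for 0 of the 10 by either tool, with 0 of the 10 at an unadjusted p under 0.05. With FGF21, 0 of the 10 passed between genotypes (2.88% of all genes, 1.61% higher and 1.26% lower, and 3.85% by adjusted p alone), 2 had an unadjusted p under 0.05 (Tfrc and Tfr2), and DESeq2 called Tfrc alone. The comparisons share their groups in pairs, so their values are not independent.

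Across individual livers, and after subtraction of each group's mean, hepcidin followed the SMAD response gene and the ligand. Hamp and Id1 had Pearson r = 0.77 and Spearman rho = 0.75 over 24 libraries, with a permutation adjusted p of 0.00018 for r and 0.00015 for rho over 6 pairs. Without the 2 libraries farthest from the median of Hamp, r was 0.64, and within the 11 libraries with 3-digit and the 13 with 4-digit numbers it was 0.68 and 0.85. Hamp and Bmp6 had r = 0.67 and rho = 0.67 (permutation adjusted p = 0.00112 and 0.002), with r of 0.58 without those 2 libraries and of 0.78 and 0.46 within the number series. Bmp6 and Id1 had r = 0.61 and rho = 0.51 (permutation adjusted p = 0.00592 and 0.0285), and r was 0.37 without the 2 libraries farthest in Bmp6.

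Both other relations of Hamp rested on few livers. Hamp and Tfrc had r = -0.70 and rho = -0.42 (permutation adjusted p = 0.00931 and 0.0645), and r was -0.08 without the 2 libraries with the least Hamp, so the relation rests on these. Hamp and Hamp2 had r = 0.84 and rho = 0.44 (permutation adjusted p = 0.00931 and 0.0522), and r was 0.03 without the same libraries, so it rests on them too. Each number series holds 1 of these 2 libraries, so the values within series rest on them as well. Within number series r was -0.74 and -0.61 for Hamp and Tfrc and 0.86 and 0.76 for Hamp and Hamp2. The ferritin genes kept their relation without the farthest libraries. Fth1 and Ftl1 had r = 0.82 and rho = 0.84 (permutation adjusted p = 6e-05 for both, from the smallest p that the resamples can give), with r of 0.70 without the farthest 2 libraries and 0.87 and 0.83 within the series.

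**Figure D5:**
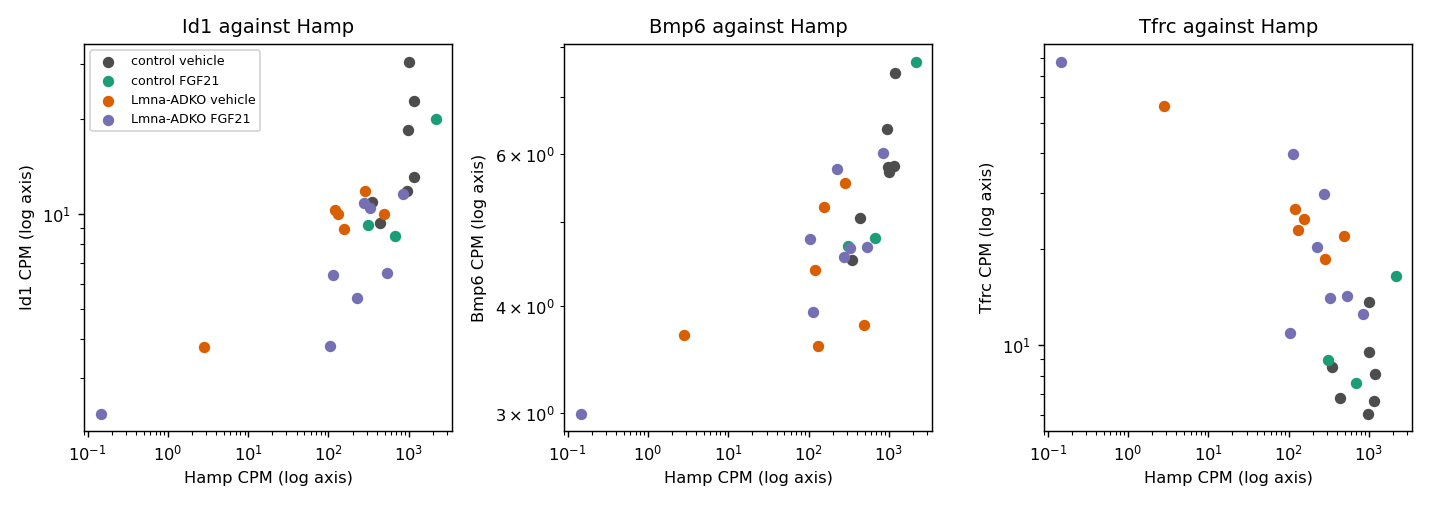
CPM of Id1, Bmp6 and Tfrc against CPM of Hamp on log axes, with 1 point per library coloured by group and no group mean removed. The pair of libraries at 2.84 and 0.145 CPM of Hamp has the highest Tfrc and the lowest Id1, at 3.79 and 2.32 CPM.

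Among 12491 genes whose log2 CPM averaged 0 or more, the 3 with a pattern most like Hamp within groups were Hamp2 (r = 0.84), Id1 (r = 0.77) and Apoa5 (r = 0.71), over 24 libraries that also share differences in RNA composition. Apoa5 encodes an apolipoprotein that promotes clearance of triglycerides. Bmp6 ranked 10th with r = 0.67. Without the 2 libraries with the least Hamp, Id1 ranked 5th (r = 0.64) and Bmp6 15th (r = 0.58), whereas Apoa5 ranked 107th (r = 0.47) and Hamp2 5304th (r = 0.03). Over all 24 libraries Tfrc ranked 6th from the opposite end (r = -0.70), but without those 2 libraries its r was -0.08, at rank 7893 from the highest.

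The pair of livers with almost no hepcidin shared other features, which were looked up after their Hamp values were seen. Lmna-ADKO vehicle 2 and Lmna-ADKO FGF21 4 had the lowest Id1 of their groups (3.79 and 2.32 CPM) and the highest Tfrc (56.3 and 77.8 CPM). Slc11a2, which encodes the iron importer DMT1, was also highest of its group in both, at 42.2 and 42 CPM, and so was Alas2, the first enzyme of haem synthesis in erythroid cells, at 81.4 and 115 CPM. The 8 erythroid markers summed to 3759.7 CPM in the first, the highest of its group (709 to 3759.7), and to 7085 in the second, where the group ranged from 1203 to 7475. The part of blood cell RNA in these levels was not tested. Other genes differed within the pair. Smad6 was the highest of its group in Lmna-ADKO vehicle 2 (8.25 CPM) and the lowest in Lmna-ADKO FGF21 4 (6.77 CPM). Bmp6 was the lowest of its group in Lmna-ADKO FGF21 4 (3.00 CPM). In Lmna-ADKO vehicle 2 Bmp6 was not the lowest, at 3.70 CPM against 3.59 in Lmna-ADKO vehicle 3.

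Of 109 other iron genes measured in 8 lists, 6 rose and 5 fell in vehicle-treated Lmna-ADKO livers, with a median log2 fold change of -0.02. Over all genes 5.12% rose and 3.36% fell in this comparison, so the count for the lists was near that of all genes. Among 25 upstream BMP genes, Bmper, which encodes a BMP-binding protein, rose from a median of 0.828 to 2.27 CPM (1.58 ± 0.26, edgeR adjusted p = 8.51e-05), the receptor gene Acvr2b fell by 1.06 ± 0.23 on the log2 scale (edgeR adjusted p = 0.00182), and Fkbp1a, which encodes a protein that binds BMP type I receptors, rose by 0.62 ± 0.14 (edgeR adjusted p = 0.00202). The most abundant of this list that were not called were Tmprss6, a protease that lowers hepcidin (-0.14, edgeR adjusted p = 0.372), and Eng (-0.10, edgeR adjusted p = 0.612). Under FGF21, Acvr2b was again lower (-1.05 ± 0.27, edgeR adjusted p = 0.0211). Hfe2, the gene of the BMP co-receptor hemojuvelin, was higher in all 8 Lmna-ADKO livers than in the 3 controls (0.56 ± 0.14, edgeR adjusted p = 0.0167), under a fold of 1.5.

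Of 19 inflammatory inputs, Inhbb alone was called by edgeR in the vehicle comparison. With FGF21 0 of 19 were called by edgeR between genotypes, 4 had an unadjusted p under 0.05 and DESeq2 called 1. Inhbb encodes a subunit of activin B, which can induce hepcidin, and rose 2.61-fold from 1.49 to 5.53 CPM in vehicle-treated controls to 5.65 to 12 in vehicle-treated Lmna-ADKO livers (1.38 ± 0.24, edgeR adjusted p = 0.000181). With FGF21 its log2 fold change was -0.15 ± 0.28 (edgeR adjusted p = 0.826), with 5.8, 9.54 and 4.6 CPM in the controls. The transcription factor genes Cebpa and Creb3l3, both linked to Hamp transcription, passed the adjusted p alone as lower in the vehicle comparison (-0.48 and -0.43, edgeR adjusted p = 0.00295 and 0.00998). The acute-phase gene Saa1 did not pass (-1.22 ± 0.78, edgeR adjusted p = 0.336), and its level in control vehicle 1, 1691 CPM, exceeded the 34.1 to 289.5 CPM of all other libraries. Despite the negative fold change, all 6 vehicle-treated Lmna-ADKO livers (96.4 to 161.9 CPM) lay above the median of vehicle-treated controls.

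Transport and carrier genes changed singly. Of 17 transport and reduction genes, the ferric reductase gene Steap4 (0.83 ± 0.14, edgeR adjusted p = 0.000108) and the haem exporter gene Flvcr1 (0.66 ± 0.15, edgeR adjusted p = 0.00262) rose and Flvcr2 fell by 1.02 ± 0.20 on the log2 scale (edgeR adjusted p = 0.000871) in vehicle-treated Lmna-ADKO livers. The most abundant of these not called were Slc48a1 (0.24, edgeR adjusted p = 0.203) and Slc46a1 (edgeR adjusted p = 1). Slc11a2 rose with FGF21 (0.69 ± 0.20, edgeR adjusted p = 0.0441), with all 8 Lmna-ADKO livers above the 3 controls, and under vehicle its log2 fold change was 0.57 ± 0.15 (edgeR adjusted p = 0.0112), under a fold of 1.5. Of 11 carriers and ferroxidases, Lrp1, a receptor that takes up haem bound to haemopexin among many ligands, fell by 0.72 ± 0.12 (edgeR adjusted p = 0.000165). Alb (-0.33) and Trf, the transferrin gene (-0.15), were not called (edgeR adjusted p = 0.196 and 0.421).

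Of 9 storage and sensing genes, 0 were called by edgeR or DESeq2 in the 2 genotype comparisons, and 4 under vehicle and 1 under FGF21 had an unadjusted p under 0.05. Pcbp2, an iron chaperone gene, was at -0.30 (edgeR adjusted p = 0.0321) and Aco1, the gene of iron regulatory protein 1, at -0.01 (edgeR adjusted p = 0.989) under vehicle. Of 15 haem genes, Alas2 alone rose under vehicle (1.22 ± 0.34, edgeR adjusted p = 0.0183). Of the most abundant haem genes, Alas1 was at 0.88 (edgeR adjusted p = 0.164) and Fech at -0.16 (edgeR adjusted p = 0.302). Alas2 is also 1 of the 8 erythroid markers, the other 7 of which were not called. Of 7 further mRNAs with iron-responsive elements, Alas2 rose under vehicle and Slc11a2 under FGF21, while Sdhb, among the most abundant not called, was at -0.27 (edgeR adjusted p = 0.479). Under FGF21, 1 of the 109 genes was called higher and 1 lower (Slc11a2 and Acvr2b), against 1.61% higher and 1.26% lower over all genes, 0 without control FGF21 2 or control FGF21 3, and DESeq2 called 5. Between FGF21 and vehicle, 0 of the 109 were called by edgeR in either genotype, with 15 in controls and 6 in Lmna-ADKO mice at an unadjusted p under 0.05, and DESeq2 called 1 and 0.

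Cell markers moved with genotype beside these genes. Of 8 hepatocyte markers, Ahsg, Serpina1a and Fgb fell under vehicle, by 1.04, 0.95 and 0.61 on the log2 scale (edgeR adjusted p = 8.99e-06, 9.81e-05 and 0.00544), and the sum was 94119 to 131971 CPM in Lmna-ADKO livers against 116177 to 180005 in controls. Of 8 markers of sinusoidal endothelial cells, the main source of BMP6, Lyve1 rose (1.93 ± 0.21, edgeR adjusted p = 5.82e-07) and the sum was 301 to 372 against 318 to 422 CPM. The median log2 fold change of this list was -0.19. By adjusted p alone, Pecam1 was higher (0.30, edgeR adjusted p = 0.0268) and Stab2 lower (-0.30, edgeR adjusted p = 0.0482). Of 8 stellate cell markers Lrat rose (0.74, edgeR adjusted p = 0.0135), with sums of 424 to 548 and 414 to 498 CPM. There Dcn was higher (0.46, edgeR adjusted p = 0.000878) and Ecm1 lower (-0.47, edgeR adjusted p = 0.0152) by adjusted p alone. Of 8 adipocyte markers, Cidec (5.31) and Pparg (0.90) rose, and both are also induced in fatty hepatocytes, while Lep was at 0 in every library of both vehicle groups. Pancreatic acinar markers summed to at most 20.1 CPM. The part of cell composition in the levels of Hamp, Tfr2 and Bmp6 was not tested.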

How the data were processed

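Liver RNA of 24 female mice was measured by polyA-selected, strand-specific RNA-Seq. The authors deposited raw counts per gene, all of them whole numbers in the file, after leaving out genes at 0 in every sample. The submitters' processing notes name cutadapt 4.8, FastQC 0.11.8, STAR 2.7.8a, RSEM 1.3.3 and GRCm38. Whether RSEM estimates were rounded is not given in the sources used here. The methods give another sequencing provider than the labels.

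TMM scaling and edgeR 4.0.16 (R 4.3.3) quasi-likelihood tests with robust fitting were applied in 1 fit of 4 groups over 23972 genes. Genes were called at a Benjamini-Hochberg adjusted p under 0.05 and a fold change above 1.5. SE was derived from the fold change and the F statistic. Log2 CPM used a prior count of 2. Lengths and positions came from GENCODE M21 (23926 genes matched). Alternatives were DESeq2 1.42.0, its size factors, filterByExpr, fewer groups, covariates and left-out libraries. Shares and ratios were compared by exact permutation, and correlations by 100000 permutations within groups. The fit was tested on simulated data. In 67 pairs of libraries within groups no duplicates were found (chi-square per gene at least 13.9). Totals were 19863304 to 21510054 counts per library, and 3 counts were taken as the floor. Intervals cover counting error only.

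The 10 genes and the lists were chosen with earlier results of these data known. Values of all members are given, and of each list up to 3 called genes with the smallest adjusted p per comparison and the 2 most abundant genes not called, except 1 result that is not reported here. Genes passing the adjusted p alone were named beyond this rule after their values were seen. Libraries are numbered within groups.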

Additional observations from a re-analysis of the deposited data

Results flagged for a closer look

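Of 36 sets of values (10 genes and the count share and ratio, in the groups of 7, 6 and 8 libraries), 9 had 1 library separated from the rest by a gap beyond Dixon's 95% limit. Chance gives about 1 in 20 for a single set of normally distributed values. The sets share libraries and genes, so the 9 cannot be compared with that rate. Lmna-ADKO vehicle 2 was set apart by low Hamp (1.55 log2 CPM), low Id1 (1.96) and high Tfrc (5.82). Lmna-ADKO FGF21 4 was set apart by low Hamp (-2.06 log2 CPM) and low Hamp2 (-0.57). Lmna-ADKO FGF21 7, which also stands apart by gene length, was set apart by high Fth1 (11.9 log2 CPM) and Ftl1 (12.9) and low Slc40a1 (6.66). Control vehicle 1, the library with high Saa1, was set apart by high Tfr2 (9.004 log2 CPM). The causes were not tested. For none of the 10 genes did the edgeR interaction test find a difference of the genotype effect between treatments, and 0 of the 10 had an unadjusted p under 0.05 or a DESeq2 call.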

How the results depend on the processing

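No paired analysis was possible because each animal number occurs once, so no groups share numbers. Tfrc was called and Tfr2 passed the adjusted p in the vehicle comparison under every alternative fitted. The number of the 10 genes called there was 1 with edgeR, 3 with DESeq2 (Hamp2, Id1 and Tfrc), 3 without the 2 libraries with the least Hamp, 2 by adjusted p alone, and 1 to 2 when each library was left out in turn, the 2 being without Lmna-ADKO FGF21 4. The 2 libraries with the least Hamp were picked after Hamp was seen, so the count without them cannot serve as support. With FGF21, DESeq2 called 1. Of the 109 listed iron genes, 19 passed the adjusted p alone under vehicle. With FGF21, 2 were called by edgeR, 5 by DESeq2, 0 with the number series as a covariate, and 1 each with only the groups compared, without the 3 libraries that stood apart by gene length, with only 4-digit numbers and without the 2 libraries with the least Hamp. Leaving out single libraries gave 0 (without control FGF21 2 or control FGF21 3) to 4 (without Lmna-ADKO FGF21 7). Between FGF21 and vehicle in controls DESeq2 called 1. Differences near 0 changed sign. With FGF21, Bmp6 became 0.018 without the 3 libraries. Fth1 became 0.049 with the number series and 0.048 with the length slope as covariates, 0.10 without the 3 libraries and 0.11 with only 4-digit numbers, and ran from -0.28 to 0.30 with single libraries left out. Ftl1 became 0.025 with the number series, 0.030 without the 3 libraries and 0.053 with 4-digit numbers, and ran from -0.33 to 0.21. Slc40a1 became -0.0045 with DESeq2 and -0.0045 with its size factors, -0.043 with the number series, -0.029 with the length slope, -0.012 without the 3 libraries, -0.092 with 4-digit numbers and -0.019 without the 2 libraries with the least Hamp, and ran from -0.085 to 0.22. Under vehicle, Ftl1 ran from -0.22 to 0.0031. For FGF21 against vehicle in controls, Hamp became -0.077 with the length slope and -0.79 without the 3 libraries and ran from -0.82 to 0.71, and Tfrc became -0.10 without the 3 libraries and ran from -0.033 to 0.58, while in Lmna-ADKO mice Tfrc ran from -0.50 to 0.25. The Hamp2 share with FGF21 differed by -4.62 percentage points without the 3 libraries and ran from -5.61 to 14.3, and for FGF21 against vehicle it ran from -4.24 to 15.7 in controls and -9.60 to 4.73 in Lmna-ADKO mice. The log2 ratio of Ftl1 to Fth1 for FGF21 against vehicle in Lmna-ADKO mice ran from 0.18 to 0.38, with an unadjusted exact permutation p under the threshold without vehicle library 2, 4 or 6. The correlation of Hamp with Bmp6 was 0.46 among 4-digit libraries, and without the 2 libraries with the least Hamp that with Hamp2 was 0.030 and that with Tfrc -0.076. The causes were not tested. With 3 control animals given FGF21, control FGF21 3 alone moved several values, and Hamp at 3 counts lies at the floor.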
